A study of Mus musculus with 4 samples.

Results

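Connexins are the proteins of vertebrate gap junctions. A ring of connexin subunits forms a channel in the membrane of a cell, and when it docks with a ring in the neighbouring cell, ions and small metabolites pass directly from cytoplasm to cytoplasm. In the eye, astrocytes, Müller glia, pigment epithelium, melanocytes and vessel walls are known for Gja1 (connexin 43). Gjd2 (connexin 36) forms electrical synapses between retinal neurons. Gjb2 (connexin 26) and Gjb6 (connexin 30) belong to epithelia, leptomeninges and astrocytes, Gja4 (connexin 37) and Gja5 (connexin 40) to arterial endothelium, and Gjc1 (connexin 45) to mural cells and some retinal neurons. The members were the 7 genes Gja1, Gjb2, Gjb6, Gjd2, Gja4, Gja5 and Gjc1, matched by exact symbol among 32285 genes in the count matrices. The matrices held another 13 connexin genes, which served as a comparison list.

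The data came from posterior eyes of C57BL/6J mice, frozen fresh in OCT compound, sectioned and placed on Visium slides, on which a grid of barcoded spots captures the RNA of the tissue above each spot. Each of 4 capture frames gave 1 library, and each captured molecule was counted once as a unique molecular identifier (UMI). The study design names AAV2/2 vectors that drive Wif1, a secreted inhibitor of Wnt signalling, from the CMV promoter, which is active in many cell types, with or without IRES-GFP, and a CMV-IRES-GFP vector as the control. All 4 frames carry the same label, naive plus AAV2/2, and the label does not say which sections were injected, so untreated, control and Wif1 eyes cannot be compared here. The labels give neither the age of the mice nor the number of animals per frame, and they describe the tissue as retina and the molecule as nuclear RNA.

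The frames held 1056 to 1243 spots over tissue, 4603 in all, and 674029 to 1066633 UMIs, 3522010 in all. Values below are given for frames 1, 2, 3 and 4 in that order, in CPM (the usual library-scaled unit, in which the UMIs of a gene are divided by the UMIs of all genes in the same spots and scaled to a common total). A spot covers several cells, so fewer cells of a type and less RNA per cell cannot be told apart. The labels call the frames biological replicates of 1 condition, and p-values reflect only frame-to-frame spread, part of which may be technical. A barcode marks a position on the slide, and pairs of frames shared 220 to 824 barcodes, so spots were kept apart by frame. Regions were drawn from 162 marker genes that include no connexin, for the 2301 spots with at least 20 UMIs of those genes, and the other 2302 spots were left unplaced. A region carries a short name after its leading marker genes.

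The promoters of Gja1 and Gjd2, the most counted glial and the most counted neuronal member, are shown as the 250 bases before an annotated start of the gene, 5′ to 3′ on the strand of the gene, from RefSeq (build GRCm38.p6). That of Gja1 lies at chr10:56377050-56377299 on the plus strand and that of Gjd2 at chr2:114013620-114013869 on the minus strand. Capitals mark matches to the motifs searched on both strands, which were CTTTGAT and CTTTGAA (TCF/LEF, factors of Wnt signalling), TGACTCA (AP-1) and GGGCGG (a GC box, bound by Sp factors).
Gja1: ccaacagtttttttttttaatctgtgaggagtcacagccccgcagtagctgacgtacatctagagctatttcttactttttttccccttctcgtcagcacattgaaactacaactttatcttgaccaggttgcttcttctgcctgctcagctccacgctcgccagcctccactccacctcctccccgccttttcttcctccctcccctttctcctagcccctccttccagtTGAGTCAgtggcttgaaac
Gjd2: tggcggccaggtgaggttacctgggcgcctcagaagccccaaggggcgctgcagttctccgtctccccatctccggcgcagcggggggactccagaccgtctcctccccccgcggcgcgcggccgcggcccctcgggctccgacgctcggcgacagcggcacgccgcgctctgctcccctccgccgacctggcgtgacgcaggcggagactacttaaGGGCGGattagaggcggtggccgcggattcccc

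The Gja1 promoter was 50% G and C, and its only match was an AP-1 motif, as TGAGTCA, that starts 19 bases before the gene. The Gjd2 promoter was 74% G and C, and its only match was a GC box that starts 33 bases before the start used. The RefSeq gene span of Gjd2 runs to base 114014378, past this window, so the start used is not the outermost one annotated. Promoters were found for 6 of the 7 members. The AP-1 motif stood in 1 of these 6 and in 4.46% of 32851 mouse promoters of the same length, and the GC box in 4 of 6 (Gja4, Gja5, Gjb2 and Gjd2) and in 32.7%. The TCF/LEF motifs CTTTGAT and CTTTGAA were in 0 of 6, against 3.21% and 4.46% of all promoters. These are letter matches in a short window and say nothing of binding.

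Gja1 supplied most of the connexin RNA. The 7 members had 1768 UMIs together, of which Gja1 had 1567, a share of 88.6% (95% exact binomial interval 87.1 to 90.1%). Intervals here cover counting error only. Gja1 had 412, 447, 541 and 167 UMIs in frames 1 to 4, which is 459.9, 419.1, 611 and 247.8 CPM (mean 434 ± 149, SD, n = 4). Frame 3 was highest and frame 4 lowest.

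The neuronal connexin Gjd2 came second with 89 UMIs, 37, 21, 13 and 18 by frame, or 25.6 ± 11.6 CPM (SD, n = 4). Frame 1 was highest at 41.3 CPM and frame 3 lowest at 14.7 CPM. Gjc1 had 71 UMIs, 21, 19, 13 and 18 by frame, or 20.7 ± 5.42 CPM (SD, n = 4). The order of Gjd2 and Gjc1 is not settled, because their frame values overlap and were equal in frames 3 and 4 at 13 and 18 UMIs each.

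Gjb2 had 7, 4, 7 and 3 UMIs, 5.98 ± 2.19 CPM (SD, n = 4). Gja4 had 6, 4, 1 and 1 UMIs, 3.27 ± 2.57 CPM (SD, n = 4). Gjb6 had 0, 4, 1 and 1 UMIs, and Gja5 had 2 UMIs, both in frame 3. A count of 0 in a frame allows a level of up to 3 UMIs, so levels of Gjb6 and Gja5 could not be told apart from each other or from those of Gja4 at this depth. Gja1 exceeded each other member in every frame, and Gjd2 and Gjc1 each exceeded Gjb2, Gjb6, Gja4 and Gja5 in every frame.

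**Figure D1:**
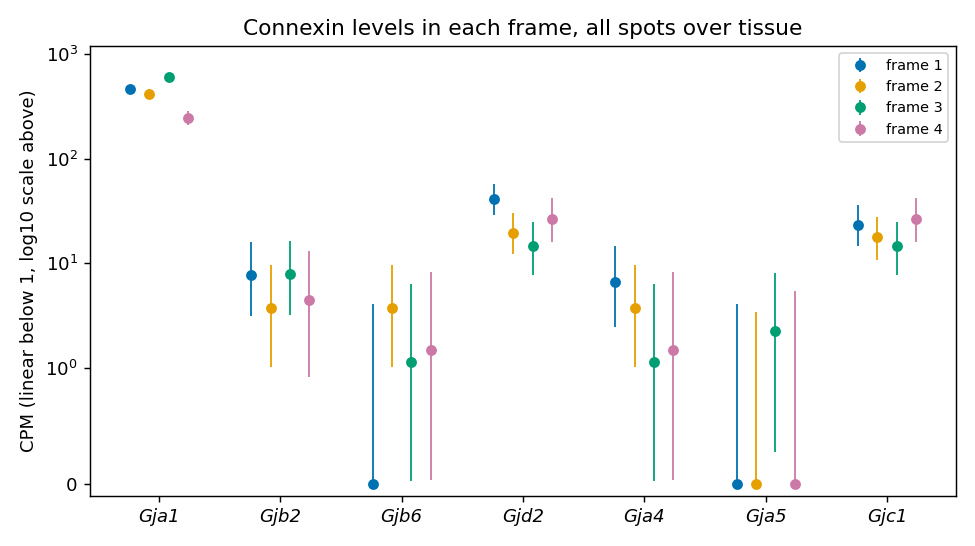
Level of each connexin in the 4 frames over all spots, in CPM on a log10 scale that is linear below 1. Points are frames and bars are 95% counting intervals. Gja1 lies between 247.8 and 611 CPM, while Gjd2 and Gjc1 lie between 14.7 and 41.3 CPM and the other members below 10 CPM.

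Among the other connexin genes, 4 of 13 had any UMI. Gjb1 (connexin 32), known from oligodendrocytes and Schwann cells, had 4 UMIs, Gje1 had 2 and Gjc3 had 1. Summed, the 13 genes reached 227 CPM in the myelin region and at most 5.03 CPM in any other region. In the myelin region 3 UMIs make 75.6 CPM, so this sum rests on few UMIs. The remaining gene with UMIs is not reported here. The lens fibre list, read for lens tissue in the sections, reached at most 74.7 CPM, in the inner nuclear region.

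By region, Gja1 was concentrated in a small group of spots led by Ighm (immunoglobulin heavy chain), Dapl1, Cd74, Trpm1, Mlana and Dct (melanin synthesis). This Ighm and Dct region had 154 spots. It gathered 792 of the 1567 Gja1 UMIs, 50.5% (95% exact interval 48 to 53%), with 3.35% of the spots and 6.19% of all UMIs. Gja1 stood at 3494, 3235, 4995 and 2159 CPM there in frames 1 to 4 (mean 3471 ± 1169, SD, n = 4). All 4 values lay above every other region's value in the same frame. In the spots outside the region Gja1 stood at 206.8, 221.7, 323.7 and 175.5 CPM, so that the pooled ratio was 15.5 (95% counting interval 14 to 17.1). This region was singled out after its values were seen, so the ratio is a description and has no test.

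The Ighm and Dct region was a mixture by its markers. The immune list summed to 10952 CPM, with 14 of 14 genes detected, and the melanocyte list to 13004 CPM, with 7 of 8 detected. The pigment epithelium list reached 473 CPM there, against 11150 CPM in the pigmented region. The Müller list reached 5054 CPM, the vessel list 1666 CPM and the meningeal sheath list 519 CPM. Of the meningeal sum, the single gene Slc13a4 gave 390 CPM. The Müller list includes Dapl1, a leading gene of this region, and its part in the Müller sum was not tested. All of these lists but the meningeal one consist wholly or mostly of the marker genes that drew the regions. Their sums were therefore partly set by the clustering. No single cell type name fits such a sum, and the part of each in the Gja1 level was not tested.

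Within the 154 spots, Gja1 CPM ran with the melanocyte list (Spearman rho 0.51) and against the immune list (rho −0.41). Spots above the median of the melanocyte list had 6891 CPM of Gja1, against 1450 CPM in the others. Spots above the median of the immune list had 1499 CPM of Gja1, against 6074 CPM in the others. The correlation was 0.34 with the Müller list, of which Dapl1 is a member, and −0.18 with vessel markers. It was −0.08 with the pigment epithelium list, −0.05 with the fibrous list and 0.12 with depth. These correlations are across spots of the same 4 libraries and share each spot's total as denominator, so they carry no p-value.

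Gja1 was dense in some spots and missing in others. It was detected in 94 of the 154 spots, a share of 61%, and a single spot of frame 3 held 63 of its 6494 UMIs as Gja1. Of 81 spots on the slides with at least 5 Gja1 UMIs, 52 lay in this region. Among all genes, by CPM ratio to the other placed spots with 20 CPM added on both sides, Gja1 had rank 3 in the region, after Gpx3 (a secreted glutathione peroxidase) and Ighm and ahead of the complement gene C3. Optc (opticin, a protein of the vitreous), Fbln1 and Slc13a4 followed.

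**Figure D2:**
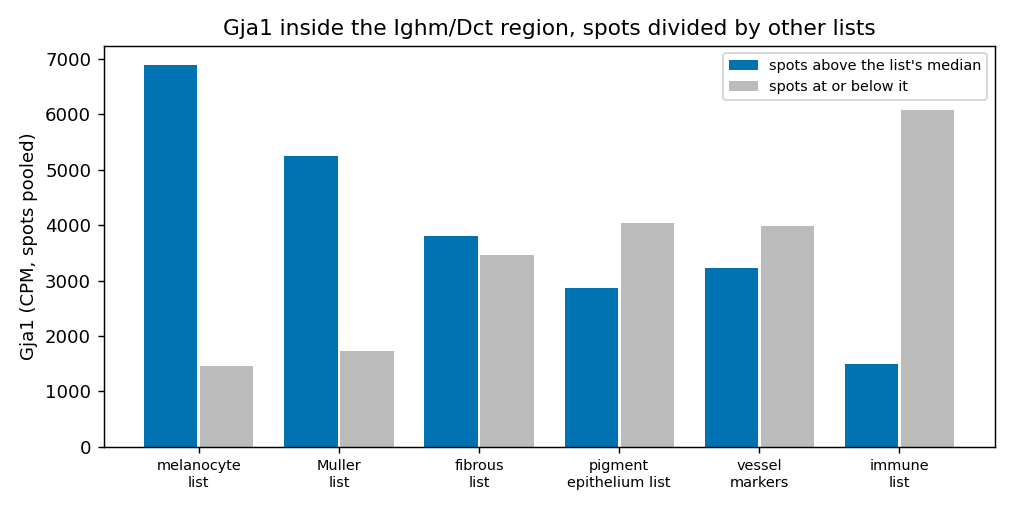
Gja1 level in the 154 spots of the Ighm and Dct region, pooled over spots above and at or below the median of each other marker list, in CPM. The largest gaps are for the melanocyte list (6891 against 1450 CPM) and, the other way round, for the immune list (1499 against 6074 CPM).

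Where this region ends depended on how the regions were drawn. With finer clusters (Leiden resolution 1 in place of 0.6), 118 of the 154 spots fell into a cluster of 122 spots that counted as pigmented, with 768 Gja1 UMIs and 5226 CPM. With a minimum of 10 marker UMIs per spot, 102 of them fell into a pigmented cluster of 176 spots, with 849 Gja1 UMIs and 5152 CPM. Under a marker rule, each spot took the class whose markers were highest relative to their mean share over all placed spots. By this rule 54 of the spots counted as immune with 119 Gja1 UMIs, 36 as pigmented with 274 and 27 as Müller with 299. The Müller class includes Dapl1, a leading gene of this region, and the part of that gene in the Müller count was not tested.

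The next level was that of the myelin region, 77 spots led by the oligodendrocyte genes Mobp, Cldn11 and Mbp, which marks the optic nerve. Gja1 had 10, 38 and 31 UMIs in frames 2, 3 and 4, or 2295, 2180 and 1733 CPM (mean 2069 ± 297, SD, n = 3), and frame 1 had no spot of this region. Every one of the 79 connexin UMIs counted for the members was Gja1, a share of 100% with a lower 95% exact limit of 95.4%. This share leaves out the other connexin genes, which also had UMIs in this region. Each of the other 6 members had 0 UMIs among 39681, which allows up to 75.6 CPM, so their levels in the nerve were not resolved at this depth.

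Gja1 was far higher in the myelin region than in the neural retina, the sum of ganglion, inner nuclear and photoreceptor spots, where it stood at 99.1, 144 and 71.5 CPM in the same frames. The values of the groups do not overlap. The log2 fold was 3.95 ± 0.65 (SD of 3 frames), higher in 3 of 3 frames, with an adjusted p of 6.47e-07 from edgeR's quasi-likelihood test with Benjamini-Hochberg adjustment over 2696 genes. Of those genes, 4.53% were called higher and 5.42% lower. The median log2 fold over all genes tested was −1.06, and −0.50 when library sizes were not scaled by TMM, which moves every value by about the same amount (Gja1 4.58). Without frame 3 the fold was 3.93 and the adjusted p 0.0826.

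Gja1 was also higher in the myelin region than in the coat (pigmented plus fibrous regions), which had 329.1, 314.2 and 36.2 CPM in frames 2, 3 and 4. The log2 fold was 3.50 ± 1.32 (SD of 3 frames), in 3 of 3 frames, with an edgeR adjusted p of 3.10e-12. Here 18.8% of 543 genes tested were called higher and 18.4% lower. The call was lost without frame 3 (3.76, adjusted p 0.0943), without the filter on low counts (2.19, adjusted p 0.136) and in the drawings that put most of the Ighm and Dct spots into the coat, with folds of 0.79 (adjusted p 0.0730) and 0.68 (adjusted p 0.0814). With that region added to the coat as drawn, an alternative chosen after seeing the data, it was 1.12 (adjusted p 0.0075).

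Astrocytes, whose gap junctions are built mainly of Gja1 and Gjb6, left their markers in the same spots. The astrocyte list summed to 8745 CPM in the myelin region (5590 to 11528 CPM by frame), against 75.4 to 384 CPM in the other named regions. Against the neural retina, 3 of 8 list genes passed the filter on low counts and were tested. All were higher, with log2 folds of 5.11 for the intermediate filament gene Gfap, 4.22 for S100b and 3.11 for the water channel gene Aqp4. Between retinal layers only Gfap passed that filter, so S100b and Aqp4 may have passed here only through the myelin region, where they are high. The 3 of 3 is therefore a description and no separate support. The Müller list, which shares genes with astrocytes, summed to 6376 CPM in the myelin region. How far Gja1 came from astrocytes was not tested. Gjb1 had 4 UMIs in the myelin region and 0 in the neural retina.

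**Figure D3:**
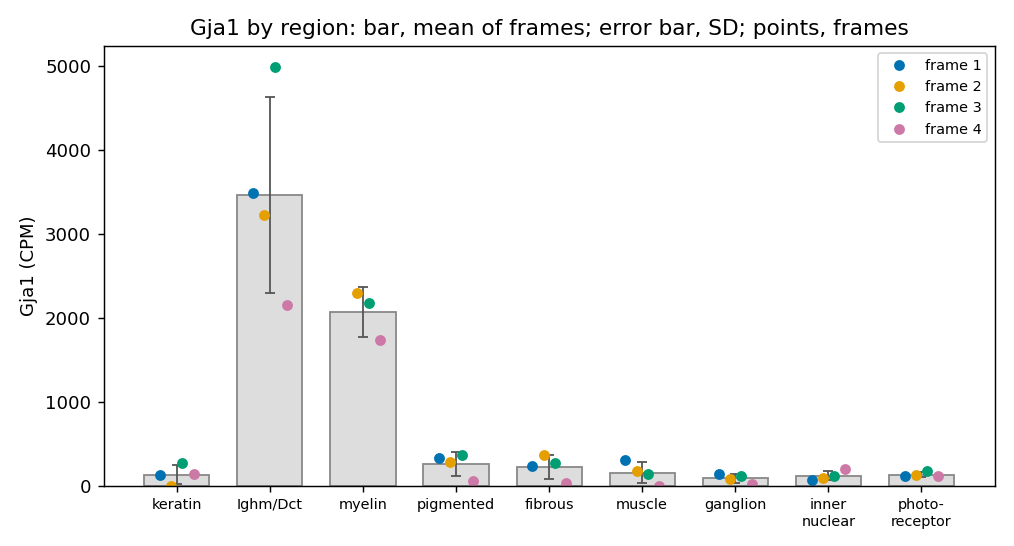
Gja1 level by region, in CPM. Bars are means over frames with at least 10 spots, error bars are SD, and points are frames. The Ighm and Dct region (2159 to 4995 CPM) and the myelin region (1733 to 2295 CPM) stand above all other named regions, whose frames lie at or below 365 CPM.

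In the outer coat, Gja1 was the leading connexin and stood modestly above the neural retina. The coat had 250.4, 329.1, 314.2 and 36.2 CPM in frames 1 to 4, against 110.5, 99.1, 144 and 71.5 CPM in the neural retina. The coat was higher in frames 1, 2 and 3 and lower in frame 4, where it held 2 UMIs. The log2 fold was 1.24 ± 1.15 (SD of 4 frames) with an edgeR adjusted p of 0.00119, and 7.74% of 3772 genes tested were called higher and 11.6% lower. Without frame 2 the fold was 0.92 and the adjusted p 0.0943.

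That coat value leaves out the Ighm and Dct region, whose place in the coat the data do not settle. With it inside the coat the log2 fold was 3.61 (adjusted p 4.11e-22, chosen after seeing the data), and the finer clusters and the lower marker minimum gave 3.76 and 4.07. Photoreceptor markers summed to 29927 CPM in the coat and 21357 CPM in the neural retina, so coat spots carried retinal RNA in quantity, and its part in the coat values was not tested.

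Pigmented and fibrous spots had similar Gja1 levels. The pigmented region, led by Slc6a20a, Rpe65 and Lrat of the pigment epithelium, had 331.8, 284.7, 363.7 and 52.1 CPM. The fibrous region, led by the matrix genes Chad and Dcn, the endothelial gene Esam and the collagen gene Col3a1, had 232.3, 365, 267.4 and 27.7 CPM. Vessel markers summed to 775 CPM in the pigmented and 1037 CPM in the fibrous region, and their part was not tested. The ranges of Gja1 overlap, and the log2 fold was 0.24 ± 0.32 (SD of 4 frames) with an edgeR adjusted p of 0.886, in a comparison that called 3.03% of 1154 genes higher and 0.433% lower. The pooled ratio was 1.13 (95% counting interval 0.80 to 1.60). It was 4.03 on the log2 scale with the finer clusters and 3.99 over 3 frames when each spot took its own class, both past the threshold (adjusted p 8.12e-09 and 0.000155). In those drawings the pigmented region held spots of the Ighm and Dct region.

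The share of Gja1 among the connexin UMIs was 82% in the coat (141 of 172, 95% exact interval 75.4 to 87.4%) and 65.4% in the neural retina (193 of 295, 59.7 to 70.8%). UMIs mark 3′ ends and count a molecule once, so a share of UMIs is a share of captured molecules and is not divided by transcript length. Gja1 led in the coat in every frame by count or by a tie, with 29 of 35, 62 of 72 and 48 of 58 UMIs in frames 1 to 3 and only 2 of 7 in frame 4, where Gjd2 and Gjb2 also had 2.

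The remaining coat connexins were sparse. Gjb2 had 7 UMIs in the coat and 1 in the neural retina, a pooled ratio of 24.4 with a 95% counting interval of 3.14 to 1101. Gjb6 had 5 UMIs in the coat and 0 in the neural retina. Against a floor of 3 UMIs over the neural retina the coat level was 5.81-fold, which leaves out counting error in the coat. The ratio of neural retina to coat was 0, with a 95% counting interval of 0 to 0.313. Of these 5, 4 lay in only 2 spots of the pigmented region. Gja4 had 4 UMIs, all in the fibrous region, and Gja5 had 0. The edgeR filter on low counts passed none of these members, and without the filter their adjusted p-values in this comparison ran from 0.164 to 0.897.

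**Figure D4:**
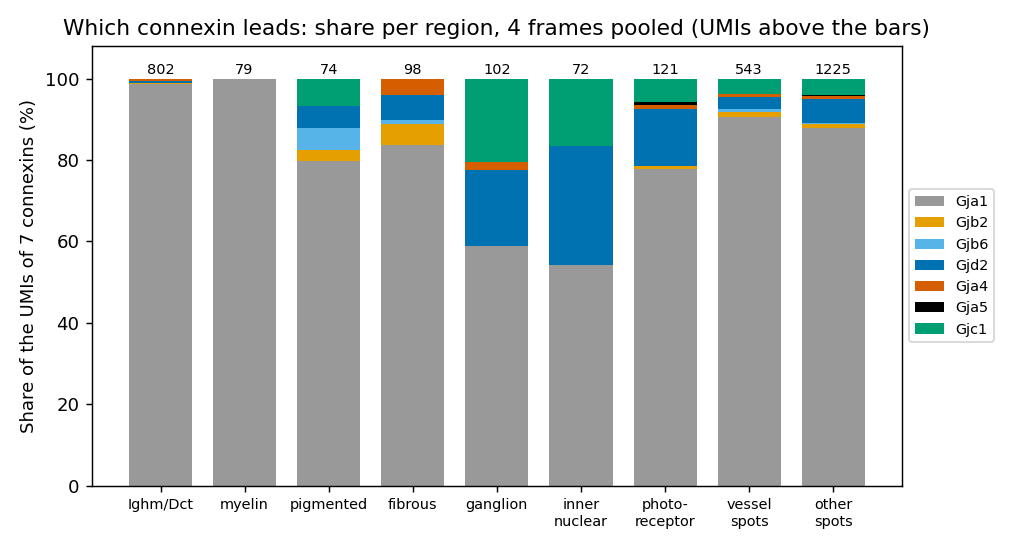
Share of each connexin among the UMIs of the 7 members in regions and in vessel and other spots, in percent, with the 4 frames pooled and the UMI totals above the bars. Gja1 makes up 98.8% in the Ighm and Dct region and 100% in the myelin region, and Gjd2 and Gjc1 together reach the largest part in the inner nuclear and ganglion regions.

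In the retina, Gja1 still led, but the neuronal connexins took more of the total. The inner retina (ganglion plus inner nuclear regions) had 99 Gja1, 40 Gjd2, 33 Gjc1 and 2 Gja4 UMIs, and the photoreceptor region had 94 Gja1, 17 Gjd2 and 7 Gjc1 UMIs with 1 each of Gjb2, Gja4 and Gja5. Gja1 therefore made up 56.9% (95% exact interval 49.2 to 64.4%) in the inner retina and 77.7% (69.2 to 84.8%) in the photoreceptor region.

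Gja1 was slightly lower in the inner retina, with 104.2, 85.9, 117.4 and 41.6 CPM, than in the photoreceptor region, with 121.7, 124.9, 177.3 and 111.5 CPM. It was lower in each of the 4 frames, though the ranges overlap. The log2 fold was −0.75 ± 0.46 (SD of 4 frames) with an edgeR adjusted p of 0.0345, in a comparison where 27.9% of 3033 genes were called higher and 24.5% lower. The call was lost without frame 2, 3 or 4 (adjusted p 0.0722 to 0.11), without TMM, without the filter on low counts, with DESeq2 and in both other clusterings. The sign turned, to 1.59 (adjusted p 5.79e-06), when each spot took its own class, under which Müller spots counted as inner retina. Of the 349 Gja1 UMIs in Müller spots of that drawing, 299 lay in spots of the Ighm and Dct region. Between the ganglion region (140.8, 80.1, 116.2 and 17.9 CPM) and the inner nuclear region (67.4, 95.4, 119.3 and 200.2 CPM) the fold was −0.21 ± 1.56 with an edgeR adjusted p of 0.813, where 10.8% of 2431 genes were called higher and 8.14% lower.

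Gjd2 was counted most densely in the inner nuclear region, where the bipolar and amacrine cells that carry electrical synapses lie. It had 8, 9, 2 and 2 UMIs there, or 53.9, 66.1, 21.7 and 80.1 CPM (55.4 ± 24.9, SD, n = 4). The ganglion region had 20.1, 22.3, 25.8 and 41.8 CPM and the photoreceptor region 48.7, 16.3, 15.2 and 20.9 CPM. The inner nuclear value was above the ganglion value in frames 1, 2 and 4 and above the photoreceptor value in all 4, but the ranges overlap.

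Pooled, Gjd2 in the inner nuclear region was 2.12 times its level in the photoreceptor region (95% counting interval 1.07 to 4.28). Its level in the ganglion region was 0.52 times that in the inner nuclear region (0.27 to 1.02). Over all neural retina Gjd2 had 57 of its 89 UMIs, 64%, with 50.7% of all UMIs there. The coat had 10 Gjd2 UMIs, 19.5 CPM pooled, against 31.9 CPM in the neural retina, a ratio of 0.61 (0.28 to 1.21). Gjd2 did not pass the filter on low counts in any region comparison, and without the filter its adjusted p-values in the coat, inner retina and ganglion comparisons were 0.75, 0.77 and 0.92.

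Gjc1 was likewise higher by count in the inner retina, with 20.2, 22.2, 16.2 and 78 CPM, than in the photoreceptor region, with 6.09, 5.43, 15.2 and 13.9 CPM. The groups do not overlap, and every frame had the inner retina higher. The pooled ratio was 2.96 (95% counting interval 1.29 to 7.93). Without the filter on low counts the edgeR log2 fold was 1.41 with an adjusted p of 0.214, so the difference did not pass the test across all genes. That fit called 1516 of 15819 genes higher and 892 lower.

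Frame 4 set the upper end for Gjc1. Its ganglion region had 14 Gjc1 UMIs in 8 spots, 83.6 CPM, against 1, 4 and 2 UMIs (6.71, 17.8 and 12.9 CPM) in frames 1 to 3. There Gjc1 took 14 of 24 connexin UMIs and exceeded Gja1, which had 3. It also led the summed inner retina of that frame, with 15 of 32 UMIs. In the inner nuclear region Gjc1 had 33.7, 29.4, 21.7 and 40 CPM, a narrower spread. Gjc1 was absent from the fibrous region, with 0 UMIs among 313444, which allows up to 9.57 CPM.

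**Figure D5:**
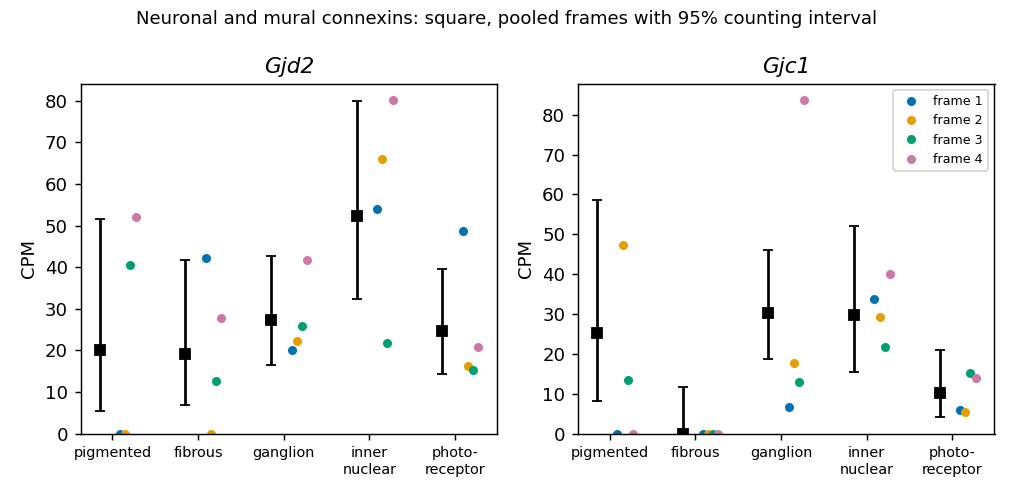
Gjd2 (left) and Gjc1 (right) by region, in CPM. Squares are the 4 frames pooled with a 95% counting interval, and points are frames. Gjd2 is highest in the inner nuclear region at 52.3 CPM pooled, and a single point, frame 4 of the ganglion region at 83.6 CPM, stands above all others for Gjc1.

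Marker lists of retinal neurons that form gap junctions were read in the same layers, whichever connexin those cells use. The list for AII amacrine cells (Dab1, Prox1 and Nfia), rod-pathway neurons coupled through Gjd2, summed to 189 CPM in the inner nuclear region, 83.3 CPM in the ganglion region and 58 CPM in the photoreceptor region. Prox1 was lower in the ganglion than in the inner nuclear region, with a log2 fold of −1.97 and an edgeR adjusted p of 0.0143. The horizontal cell list summed to 162, 119 and 17.4 CPM in the same order of regions. Of its 4 genes, 2 belong to the inner nuclear markers that drew the regions, so these sums were partly set by the clustering. These genes were no test of coupling.

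Pannexins, a second family of channel proteins, showed a clear layer pattern in Panx2. It had 76 UMIs in the ganglion region (109 CPM), 15 in the inner nuclear region (37.3 CPM) and 3 in the photoreceptor region (4.35 CPM). It was higher in the inner retina than in the photoreceptor region by 4.00 ± 0.37 on the log2 scale in 4 of 4 frames (edgeR adjusted p 8.43e-06). It was higher in the ganglion than in the inner nuclear region by 1.64 ± 0.71 in 4 of 4 frames (adjusted p 0.0148), and lower in the coat than in the neural retina, at −2.94 ± 1.49, in 4 of 4 frames (adjusted p 0.00395). Panx1 had 13 UMIs over tissue and Panx3 had 0.

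Of 16 genes for connexin partners and turnover, 9 were tested in the coat comparison, 1 higher and 2 lower, with a median log2 fold of 0.01 against −0.02 for all genes tested. The membrane linker Ezr was higher in the coat by 2.34 ± 0.90 (edgeR adjusted p 2.86e-06). Ywhaq, a 14-3-3 protein, and the ubiquitin ligase Nedd4, which targets Gja1, were lower at −0.78 ± 0.41 and −0.64 ± 0.24. In the inner retina comparison 7 were tested, 3 higher (Ywhaq 1.04, Nedd4 0.50 and the catenin gene Ctnnb1 0.94) and 1 lower, with a median of 0.48 against 0.02. In the ganglion comparison 5 were tested and 1, Ywhaq at 0.71, was higher. Against the shares called among all genes, nothing particular to the list is read from these counts. In the keratin region 7 were tested and 1, Ywhaq at −1.15, was lower. No call was made among 5 tested for myelin against the retina, 3 for myelin against the coat and 3 for pigmented against fibrous, where 1 gene each had an unadjusted p below 0.05 (Nedd4, Ywhaq and Nedd4), or among the 12 tested in vessel spots, where Nedd4 had the lowest unadjusted p, 0.0849.

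The keratin region, 68 spots led by Krt15, Krt5 and Krt4 of the surface epithelium, was read for the epithelial connexins Gjb2 and Gjb6. Gjb2 had 2 UMIs there and 11 in the other placed spots, a pooled ratio of 6.93 (95% counting interval 0.75 to 31.7), and Gjb6 had 0 UMIs, which allows up to 42.9 CPM. Neither was measured well enough to place. Gja1 had 3, 0, 6 and 2 UMIs, or 126.5, 0, 270.5 and 135.9 CPM, against 491.1, 423.7, 610.5 and 242 CPM in the other placed spots. It was lower in 4 of 4 frames at −1.82 ± 2.40 on the log2 scale (edgeR adjusted p 0.0426), with 0.771% of 3500 genes called higher and 1.54% lower. The other placed spots include the Ighm and Dct region, which holds most of their Gja1. Without that region, an alternative chosen after seeing the data, they had 144.1, 171.1, 239.4 and 132.5 CPM, so that the keratin region was lower in frames 1 and 2 and higher in frames 3 and 4. The log2 fold was then −0.46 (edgeR adjusted p 0.852) and the pooled ratio 0.90 (95% counting interval 0.44 to 1.62). The call was also lost when any of the frames was left out (adjusted p 0.0632 to 0.244), without TMM (0.112), with DESeq2 (0.136), with a minimum of 10 panel UMIs (0.124) and when each spot took its own class (0.62).

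Vessel spots were taken as the 514 spots with at least 2 UMIs of 20 endothelial and mural markers, whatever their region, against 4089 other spots. Vessel spots were deeper, with a median of 1038.5 UMIs against 527 in other spots, and the part of depth was not tested. The markers summed to 2678 CPM in vessel spots and 224 CPM in other spots, a gap set by the choice of spots. The arterial connexins were barely counted there. Gja4 had 4 UMIs in vessel spots and 8 elsewhere, a pooled ratio of 2.04 (95% counting interval 0.45 to 7.62), and Gja5 had 0 and 2. A level of up to 4.33 CPM is allowed by the count of 0 in vessel spots. The arterial endothelium list summed to 253 CPM in vessel spots and 177 CPM in other spots, and of its 3 genes tested, 1 was higher, the transcription factor gene Sox17 at 1.43 ± 1.45, in 3 of 4 frames (edgeR adjusted p 0.0112). The others did not pass, with Alpl (an alkaline phosphatase) at −0.97 ± 0.37 (adjusted p 0.0818) and the ephrin gene Efnb2 at −0.08 ± 0.25, and the list median was −0.08 against 0.02 for all genes tested.

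Gja1 led vessel spots with 492 of 543 connexin UMIs, or 121 of 169 without the Ighm and Dct region. Without that region Gja1 led in frames 1 to 3 and Gjc1 in frame 4, with 9 of 17 UMIs. In vessel spots of the neural retina Gja1 led in frames 2 and 3, Gjd2 in frame 1 with 5 of 10 UMIs and Gjc1 in frame 4 with 9 of 12. Over all vessel spots, Gja1 stood at 631.1, 647.4, 1072 and 138.8 CPM, against 417.6, 355.7, 472.8 and 262.3 CPM in other spots. It was higher in frames 1 to 3 and lower in frame 4. The log2 fold was 0.59 ± 0.92 with an edgeR adjusted p of 0.0591, which did not pass, in a comparison where 2.82% of 5501 genes were called higher and 3.76% lower. It passed without frame 4 (0.80, adjusted p 0.000131) and without TMM (0.65, adjusted p 0.0376).

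With the spots of the Ighm and Dct region left out, Gja1 had 76.8, 298.1, 259.7 and 95.1 CPM in vessel spots and 234, 202.8, 340.6 and 184.2 CPM in other spots, and the log2 fold was −0.45 (adjusted p 0.384, chosen after seeing the data). Within the neural retina alone it was −0.83 (adjusted p 0.231), and within the coat alone 0.30 over the 3 frames with enough spots (adjusted p 0.794).

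Gjc1, the mural member, had 20 UMIs in vessel spots and 51 elsewhere, a pooled ratio of 1.60 (95% counting interval 0.90 to 2.73). Within the neural retina it had 1, 5, 2 and 9 UMIs in vessel spots, or 10.5, 45.6, 20 and 210 CPM, against 16.4, 9.19, 14.5 and 27.3 CPM in other spots. It was higher in frames 2, 3 and 4 and lower in frame 1, the ranges overlap, and 9 of the 17 UMIs came from 4 spots of frame 4. The pooled ratio of 3.06 (1.54 to 5.99) therefore rests largely on that frame. Gjd2 passed the filter in the vessel comparison and showed −0.20 ± 0.28 (edgeR adjusted p 0.870), with 16 UMIs in vessel spots and 73 elsewhere.

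Gjb6 had 4 UMIs in vessel spots and 2 elsewhere, and Gjb2 had 7 and 14. Without the filter on low counts, all 7 members had adjusted p-values of 0.257 or more in the vessel comparison.

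Among 4767 genes outside the marker panel with at least 100 UMIs, those whose log2(CPM + 10) ran most like that of Gja1 over 35 pairs of frame and region were the complement gene C4b (Pearson r 0.80), the calponin gene Cnn3 (0.77), the retinaldehyde dehydrogenase gene Aldh1a1 (0.77), the cyclin gene Ccnd2 (0.76) and Zmpste24 (0.75). C4b had 605 CPM in the myelin region, 202 CPM in the Ighm and Dct region, 33.2 CPM in the coat and 12.3 CPM in the neural retina. Cnn3 had 378, 358, 111 and 59.9 CPM in the same regions. Pairs from 1 frame share a library, so these correlations are a description with no p-value.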

How the data were processed

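The authors deposited raw counts, whole numbers of UMIs per gene and spot, from Space Ranger 2.0.0 per the file headers and on mm10, per the submitters' processing notes. The aligner and annotation are not given in these sources. Only spots called over tissue were used, and images were not used. Spot barcodes were read as positions and no spot was treated as a cell.

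The counts of spots that held at least 20 panel UMIs were scaled to 10000, log-transformed, standardised (limit 10), reduced to 10 components and clustered (15 neighbours, Leiden resolution 0.6) with scanpy 1.11.5. A cluster took the class with most of its 10 leading panel genes, if at least 3. By this rule the Ighm and Dct region was immune, but 4 of its 10 leading genes were of other classes, so it was named after leading genes and left out of the coat. UMIs were summed per frame and region, for frames with at least 10 spots in both regions. Genes passing filterByExpr (minimum count 10) were tested with edgeR 4.0.16 (TMM, robust quasi-likelihood, frame as block, Benjamini-Hochberg limit 0.05), with panel genes left out. DESeq2 1.42.0 was an alternative. A ± beside a log2 fold gives the SD over single-frame folds (prior count 2). Floors are 3 UMIs over the group named and intervals 95%. The fit was tested on simulated data.

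The frame is the block since it supplied both regions of each pair. Deviations of paired regions from their group means correlated by 0.0105 to 0.216 over the 8 comparisons. The members, panel, lists and tests were chosen with earlier results of these data known. Named genes are the members, up to 3 genes of lowest p per list, and the 5 genes most like Gja1. Other genes, such as those leading a region, and Gjb1, were picked after their values were seen. Protein sequences were not used here, and results of some genes are not reported here.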

Additional observations from a re-analysis of the deposited data

Results flagged for a closer look

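In 31 sets of 4 frame values for the members, the highest or lowest frame was looked at for a gap to its neighbour that exceeds Dixon's 95% critical value as a share of the whole range, and 5 were found. For normally distributed values, chance alone gives such a gap in about 5% of sets. Sparse counts need not follow that share, and the sets share frames and spots. Gjc1 accounts for 3 of the 5. In the neural retina it had 50.6 CPM in frame 4 (17 UMIs), against 15.2 to 16.5 CPM in the other frames. In the ganglion region it had 83.6 CPM in frame 4 (14 UMIs), against 6.71 to 17.8 CPM. In the other spots of the vessel comparison it had 27.8 CPM in frame 1 (20 UMIs), against 13.2 to 15.6 CPM. Gjd2 in the photoreceptor region had 48.7 CPM in frame 1 (8 UMIs), against 15.2 to 20.9 CPM. Gja5 over all spots had 2.26 CPM in frame 3, which is 2 UMIs, and 0 in the others. A gene with all its UMIs in a single frame always gives such a gap, so the Gja5 set carries no weight. What sets these frames apart was not tested.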

How the results depend on the processing

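The tests were refitted with each frame left out, without the replicate block, without TMM, without the filter on low counts, with DESeq2 and in other drawings. The higher level of Gja1 in the myelin region than in the neural retina kept its direction and its call under all but the fit without frame 3, at 2.32 to 4.58 in the other drawings and settings. The higher level in the coat than in the neural retina kept both under all but the fit without frame 2. Without the replicate block, calls numbered 672 in place of 268 for myelin against neural retina and 180 in place of 81 for the keratin region, and Gja1 kept its call or its lack of one in every comparison.

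Gja1 between pigmented and fibrous spots was 4.03 at resolution 1 and 3.99 by the marker rule. Between inner retina and photoreceptor spots it was −0.65 without TMM, −0.73 without the filter, −0.80 with DESeq2, −0.075 at resolution 1, −0.59 with a minimum of 10 panel UMIs and 1.59 by the marker rule. Between myelin and coat it was 2.19 without the filter, 0.79 at resolution 1 and 0.68 with the minimum of 10. In the keratin region it was −1.60 without TMM, −1.72 with DESeq2, −1.30 with the minimum of 10, −0.74 by the marker rule and −0.46 without the Ighm and Dct region, and its call was lost in each. In vessel spots it was 0.65 without TMM, −0.39 by endothelial markers alone, −0.83 within the neural retina and −0.45 without the Ighm and Dct region, and Gjd2 was 0.52 with vessel spots taken from 1 vessel UMI. The mean frame level of Gja1 was 231.9 CPM without the Ighm and Dct region. Its share in the coat was 96.6% by the marker rule, 96.3% at resolution 1 and 96.4% with the minimum of 10, and that in the neural retina 83.9% by the marker rule. The cause was not tested.

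Counts of calls moved as follows. Coat against neural retina gave 731, and 419 by the marker rule. Pigmented against fibrous gave 40, and 16 without the filter, 291 at resolution 1 and 22 by the marker rule. Inner retina against photoreceptor gave 1588, and 2408 without the filter. Ganglion against inner nuclear gave 461, and 306 with DESeq2, 726 at resolution 1 and 273 by the marker rule. Myelin against coat gave 202, and 111 without the filter and 130 by the marker rule. The keratin region gave 81, and 170 without the filter and 45 with DESeq2. Vessel spots gave 362, and 175 with DESeq2, 232 from 3 vessel UMIs, 139 at 0.5% of UMIs, 170 by endothelial and 43 by mural markers alone, 25 within the coat, 234 within the neural retina and 205 without the Ighm and Dct region. The share of calls that were higher was 45.5% for myelin against neural retina, 63.1% without TMM and 33.1% with DESeq2. It was 33.3%, 61.9% and 62.2% for the keratin region in the same order, and 42.8% in vessel spots against 53.6% without TMM.

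With 1 frame left out, the counts and the Gja1 fold ran from 481 to 802 and 0.92 to 1.46 for coat against neural retina, from 19 to 39 and 0.11 to 0.54 for pigmented against fibrous, from 1379 to 1571 and −0.92 to −0.58 for inner retina against photoreceptor, and from 271 to 421 and −0.83 to 0.17 for ganglion against inner nuclear. They ran from 28 to 332 and 3.68 to 4.04 for myelin against neural retina, from 5 to 224 and 2.60 to 3.77 for myelin against coat, from 40 to 69 and −2.19 to −1.56 for the keratin region, and from 141 to 420 and 0.31 to 0.80 for vessel spots.

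Alternatives that move or leave out the Ighm and Dct region, vessel spots taken from 1 vessel UMI, and the shares under other clusterings were chosen after seeing the data. Levels per kilobase were not run, since no transcript lengths were used here. Pigmented against fibrous could not be fitted with the minimum of 10, as no cluster took the fibrous class, and Gja1 was too low to test between ganglion and inner nuclear by the marker rule. Depth limits Gjb2, Gjb6, Gja4 and Gja5 throughout, with 2 to 21 UMIs each.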
